A study of Mus musculus with 4 samples.

Results

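The 8 mouse Gimap genes (Gimap1, Gimap3, Gimap4, Gimap5, Gimap6, Gimap7, Gimap8 and Gimap9) were taken from an array study of regulatory T cells (Treg, a class of CD4 T cell that depends on the transcription factor Foxp3 and dampens immune responses). A gene entered by its symbol, through probe sets that the platform annotation ties to that symbol alone, and its brightest probe set stood for it. All 8 were found among 22180 genes with such a probe set, and all 8 were bright enough to be tested, among 12114 genes. Mice received an antibody that activates death receptor 3 (DR3, a receptor of the tumour necrosis factor receptor superfamily that costimulates T cells) or an isotype control antibody by the intraperitoneal route. Cells positive for CD4 and for the Foxp3 GFP reporter were sorted 4 days later. Both groups were of the strain Foxp3Luci-DTR-4(B6 Albino), so treated and control animals carried the same reporter and B6 Albino background. The data are 2 arrays after anti-DR3 and 2 arrays after control antibody. Nothing in the labels ties the arrays of a group to separate animals, so each p-value reflects only how far these arrays lay apart, and that spread may be technical.

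Gimap proteins (GTPases of immunity-associated proteins) are small GTPases found mainly in lymphocytes. They bind GTP, assemble on internal membranes such as those of lysosomes and the endoplasmic reticulum, and several are needed for the survival of resting T cells, so that animals without Gimap5 or Gimap1 lose peripheral lymphocytes. The genes lie side by side in 1 cluster, on chromosome 6 in the mouse. The comparison asked whether their RNA in Treg differed once DR3 had been activated in vivo.

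The measured differences of the Gimap genes pointed in both directions. After anti-DR3, 1 of 8 rose, Gimap7, and 0 fell, while 7 missed an adjusted p of 0.05 in limma (a linear model that shares the estimate of spread between genes, with Benjamini-Hochberg adjustment over the 12114 genes tested). Among all genes tested 5.96% were called, 4.49% higher and 1.47% lower, so 1 of 8 is no result about the family. The log2 differences, anti-DR3 minus control antibody, ran from -0.30 (Gimap9) to 0.44 (Gimap7), with 5 above 0 and 3 below. Their median was 0.12, beside 0.01 over all genes tested, and 88.3% of all genes tested had differences within the range that the 8 genes spanned. That range is set by the lowest and the highest member and does not describe the typical size. The interquartile range over all genes tested, -0.11 to 0.16, held only Gimap5 and Gimap8 of the family. For the other members, 7.73% (Gimap7) to 30.6% (Gimap3) of all genes tested differed by more in either direction. Of the 8, 3 lay under an unadjusted p of 0.05 (Gimap1, Gimap7 and Gimap9, limma), beside 26.1% of all genes. In bulk samples fewer cells with a transcript and less transcript per cell cannot be told apart.

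**Figure D1:**
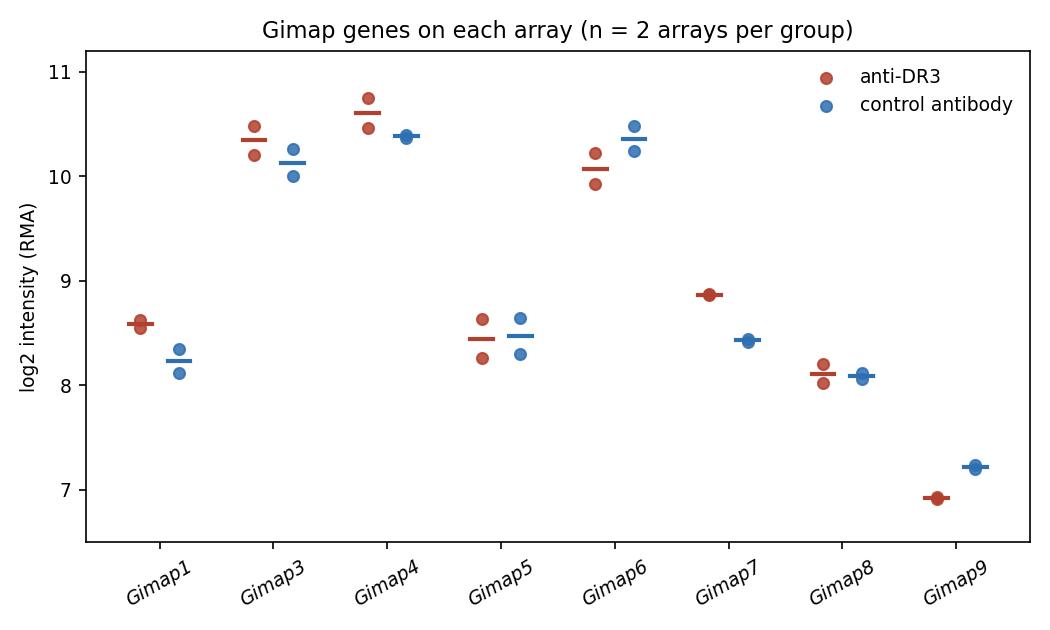
Log2 intensity of each Gimap gene (x axis) on each array, with anti-DR3 in red on the left and control antibody in blue on the right (points, 2 arrays per group; bars, group means). The groups lie apart with little spread for Gimap7 (higher after anti-DR3) and Gimap9 (lower), while the points of Gimap5 and Gimap8 overlap; levels of different genes come from different probes and are not comparable.

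Gimap7, which in human cells activates the GTPase activity of other family members by pairing with them, was the gene that rose. Its log2 intensities were 8.87 and 8.87 on the anti-DR3 arrays, against 8.42 and 8.44 on the control antibody arrays. Both anti-DR3 arrays lay above both control arrays, and arrays of a group differed by 0.0031 after anti-DR3 and 0.022 after control antibody. The difference was 0.44 ± 0.077 on the log2 scale (SE, n = 2 arrays per group), or 1.36-fold, with an adjusted p of 0.0345 (limma) and a 95% interval of 0.25 to 0.63. Of all genes tested, 7.73% differed by more in either direction. The call rested on all 4 arrays: without any 1 of them the difference stayed between 0.43 and 0.45, but the adjusted p lay between 0.0866 and 0.194 (limma). It was also lost when arrays were centred on their median gene tested (adjusted p = 0.0552, limma) and with the replicate number as a block (0.0559), with no filter on dim genes (0.141), with an ordinary linear model (0.152) and with every probe set tested on its own (0.125), and the adjusted p ran from 0.00456 to 0.194 over all settings.

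Gimap1, Gimap3 and Gimap5 are the members most closely tied to lymphocyte survival. Gimap1, which mature T and B cells of the mouse need to persist, had log2 intensities of 8.55 and 8.62 after anti-DR3, against 8.35 and 8.12 after control antibody. The groups did not overlap, and the difference of 0.35 ± 0.10 (SE, n = 2 arrays per group) had a 95% interval of 0.097 to 0.61 but an adjusted p of 0.104 (limma). Gimap1 was the only member with a second probe set, which was dimmer, with 6.15 and 6.02 after anti-DR3, against 6.25 and 5.93 after control antibody. There the groups overlapped and the difference was -0.0066, so the higher level of Gimap1 was seen at 1 of its 2 probe sets.

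Gimap5, the member whose loss causes lymphopenia in rats and mice, stood at 8.26 and 8.63 after anti-DR3 and at 8.64 and 8.30 after control antibody. The arrays of each group lay farther apart than the group means, which differed by -0.03 ± 0.17 (SE; adjusted p = 0.944, limma), and the 95% interval from -0.43 to 0.38 leaves room for a difference in either direction. Leaving out 1 array turned this difference to 0.16 (without anti-DR3 replicate 1) or 0.15 (without control antibody replicate 1). Gimap3, a close relative of Gimap5 in the mouse, had 10.20 and 10.48 after anti-DR3, against 10.26 and 10.00 after control antibody. Its groups overlapped, with a difference of 0.21 ± 0.13 (SE; adjusted p = 0.374, limma), and whether its probes also bind Gimap5 transcripts was not tested.

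Gimap4 and Gimap6 act in cell death and autophagy. Gimap4, which speeds the death of T cells once apoptosis has begun, had 10.47 and 10.75 after anti-DR3, against 10.40 and 10.37 after control antibody. The lowest anti-DR3 array lay just above the highest control array, and the difference of 0.23 ± 0.11 (SE) did not pass (adjusted p = 0.270, limma). Without anti-DR3 replicate 2 it was 0.08. Gimap6, which binds a protein of the autophagosome membrane, went the other way, with 9.93 and 10.22 after anti-DR3, against 10.48 and 10.24 after control antibody. These groups were separated by less than the spread within either, and the difference of -0.29 ± 0.13 (SE) had an adjusted p of 0.242 (limma).

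Gimap9 and Gimap8 complete the family. Gimap9 had 6.91 and 6.93 after anti-DR3, against 7.24 and 7.20 after control antibody. Both anti-DR3 arrays lay below both control arrays by far more than arrays of a group differed, and the difference of -0.30 ± 0.077 (SE, n = 2 arrays per group), with a 95% interval of -0.49 to -0.11, had an adjusted p of 0.0776 (limma). It passed, at 0.0436, under a stricter filter on dim genes, with a range of 0.0436 to 0.285 over all settings. Gimap8, which carries several GTPase domains in 1 protein, had 8.02 and 8.20 after anti-DR3, against 8.12 and 8.06 after control antibody. Its groups overlapped and differed by 0.02 ± 0.095 (SE; adjusted p = 0.920, limma), a direction that turned to -0.04 when arrays were centred on their median gene tested.

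In all, anti-DR3 and control arrays were fully apart for 5 of 8 genes, 3 higher (Gimap1, Gimap4 and Gimap7) and 2 lower (Gimap6 and Gimap9) after anti-DR3. Among all genes tested this held for 56.1%, 31.6% higher and 24.6% lower, so the share in the family lay near the background.

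**Figure D2:**
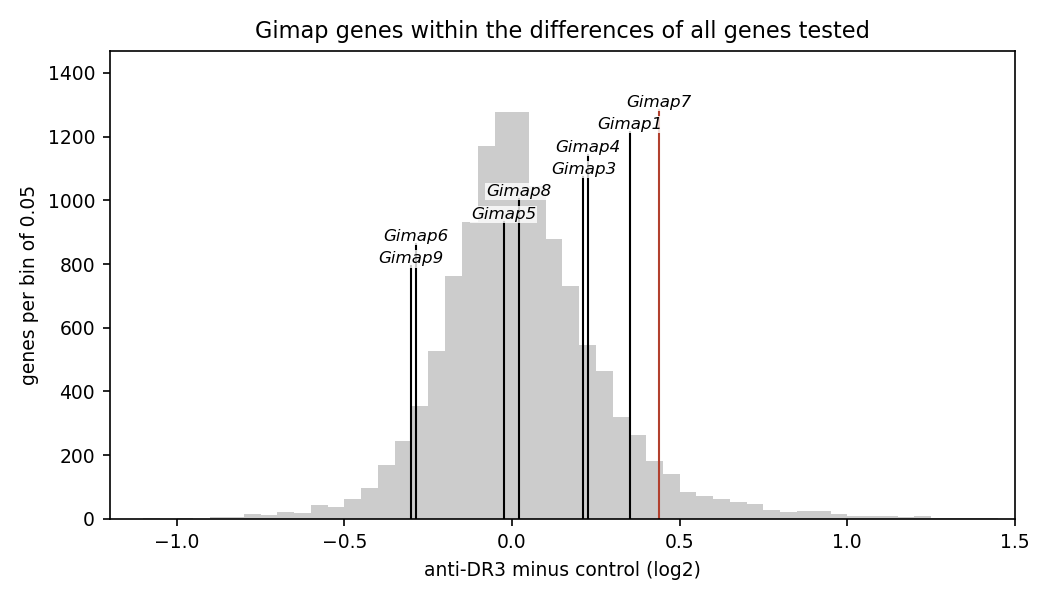
Histogram of the log2 differences, anti-DR3 minus control antibody (x axis), of the 12114 genes tested (y axis, genes per bin), with a line for each Gimap gene; line heights only separate the names, and the red line marks Gimap7, the gene called. The 8 lines run from -0.30 to 0.44, a range that holds 88.3% of all genes tested.

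Within an array the ratio of 2 members does not depend on a scale factor shared by all genes of that array. A correction that varies with intensity need not cancel in it. The pairs were formed after their values were seen and are given with no test. The log2 ratio of Gimap7 over Gimap9 signal was 1.96 and 1.94 after anti-DR3, against 1.18 and 1.24 after control antibody. The change between the groups, 0.74 on the log2 scale or 1.67-fold, was many times the distance between arrays of a group. For Gimap1 over Gimap6 the ratio was -1.38 and -1.59 after anti-DR3, against -2.14 and -2.12 after control antibody, a change of 0.64. This ratio used the brighter probe set of Gimap1, while the dimmer one differed by only -0.0066 between the groups. Each pair sets a member that was higher on both anti-DR3 arrays over one that was lower on both, so this choice fixed that the ratios separate the groups.

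The arrays of a group also differed along the family. On the anti-DR3 arrays replicate 2 was higher than replicate 1 for 8 of 8 members, by a median of 0.23, where the median over all genes tested was -0.0017 and 49.3% of genes were higher in replicate 2. On the control arrays replicate 2 was lower for 7 of 8, by a median of -0.15, beside -0.0088 and 52.3% lower over all genes tested. Both held for 7 of 8 members and 24.5% of all genes tested. Gimap3, Gimap5 and Gimap6 showed both most clearly, with 0.28, 0.38 and 0.29 between the anti-DR3 arrays and -0.25, -0.35 and -0.25 between the control arrays. Gimap7 and Gimap9, the pair with the lowest unadjusted p (0.00128 and 0.00827, limma), were the members with the least distance between the anti-DR3 arrays, and Gimap7 and Gimap4 had the least between the control arrays. For Gimap3, Gimap5 and Gimap6 the arrays of a group thus lay about as far apart as the group means or farther, and with 1 array left out Gimap3 ran from 0.07 to 0.35 and Gimap6 from -0.43 to -0.14. The source of this distance was not tested.

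**Figure D3:**
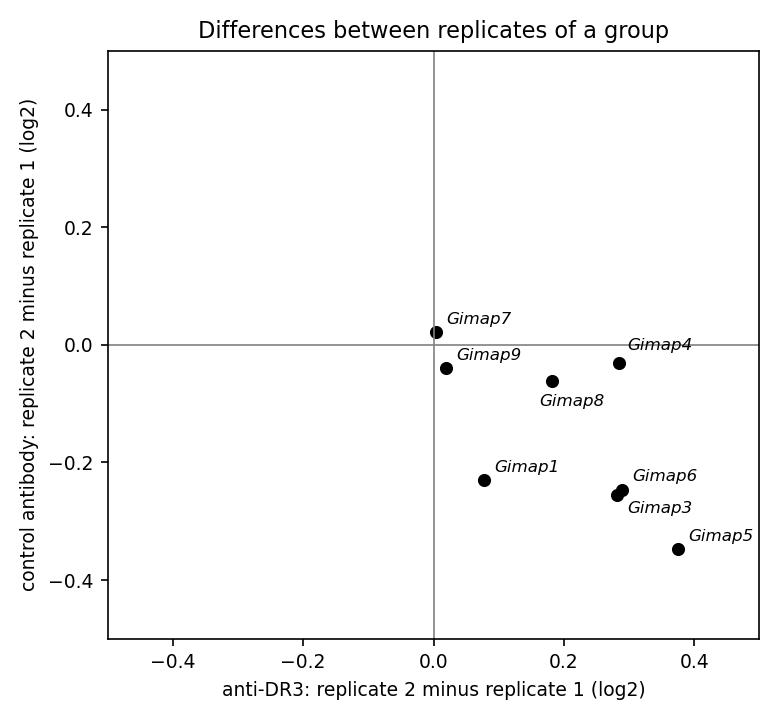
Difference between the 2 arrays of a group, replicate 2 minus replicate 1 on the log2 scale, for anti-DR3 (x axis) and control antibody (y axis), 1 point per Gimap gene. Of the 8 points, 7 lie to the lower right, and Gimap7 and Gimap9 lie nearest to 0.

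**Figure D4:**
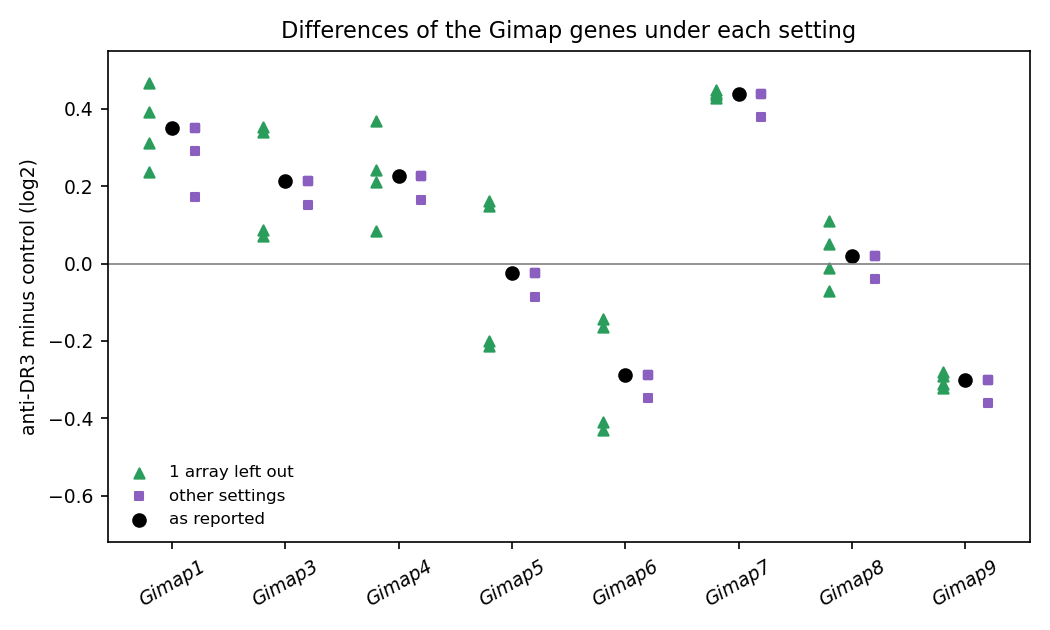
Log2 difference, anti-DR3 minus control antibody (y axis), of each Gimap gene with all 4 arrays (black), with 1 array left out (green triangles, 4 per gene) and under the other settings (violet squares, many of which coincide). Gimap1, Gimap3, Gimap4 and Gimap7 stayed above 0 and Gimap6 and Gimap9 below 0 in these settings, while Gimap5 and Gimap8 took both signs. Gimap1 is shown by its brightest probe set or the mean of its probe sets. Its dimmer probe set alone, at -0.0066, is not shown.

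Neighbours in the cluster differed in direction. In a RefSeq gene table of GRCm38.p6, used for names and order, the members run Gimap8, Gimap9, Gimap4, Gimap6, Gimap7, Gimap1, Gimap5 and Gimap3, with 2 predicted genes and no other named gene among them. Of the 8, 6 lie on the plus strand and 2, Gimap6 and Gimap3, on the minus strand. Gimap6, at -0.29, stands directly beside Gimap7, at 0.44, and Gimap9, at -0.30, lies beside Gimap4, at 0.23, although of these only Gimap7 passed. Both signs occurred on the minus strand (Gimap6 at -0.29 and Gimap3 at 0.21) and on the plus strand.

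The nearest measured genes outside the cluster did not pass either. Before it, Repin1 and Zfp775, a pair of zinc finger genes, differed by 0.04 and 0.09 (adjusted p = 0.847 and 0.614, limma), and AI854703 was too dim to be tested. Behind it lie Tmem176b and Tmem176a, membrane proteins of myeloid and some T cells, and then Aoc1, an amine oxidase too dim to be tested. Tmem176b differed by 0.17 and Tmem176a by 0.26 (adjusted p = 0.415 and 0.375, limma). For Tmem176a the arrays read 6.68 and 6.25 after anti-DR3, against 6.07 and 6.34 after control antibody, so the groups overlapped, and replicate 2 was the lower anti-DR3 array and the higher control array, the reverse of the Gimap genes.

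**Figure D5:**
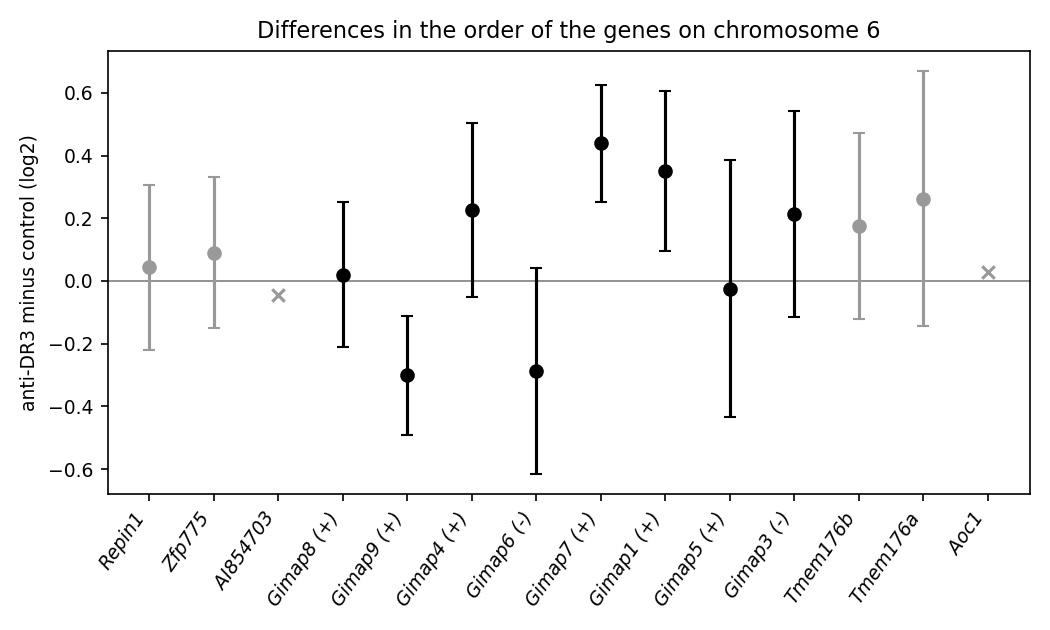
Log2 difference, anti-DR3 minus control antibody, with its 95% interval from limma (y axis), of the Gimap genes (black, with their strand) and the nearest measured genes (grey) in their order on chromosome 6 (x axis, not to scale); crosses mark genes too dim to be tested, without an interval. The intervals of Gimap1, Gimap7 and Gimap9 leave out 0, and these intervals are not adjusted for the number of genes tested.

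Promoter windows are shown for the 2 members with the highest and the 2 with the lowest differences. They were picked by these values, and of them only Gimap7 was called. Each runs from 250 bases before to 50 bases after the RefSeq transcription start on GRCm38.p6, 5' to 3' on the gene's own strand. Capitals mark the motifs found, and all else is in lower case.
Gimap7, chr6:48718371-48718670, plus strand: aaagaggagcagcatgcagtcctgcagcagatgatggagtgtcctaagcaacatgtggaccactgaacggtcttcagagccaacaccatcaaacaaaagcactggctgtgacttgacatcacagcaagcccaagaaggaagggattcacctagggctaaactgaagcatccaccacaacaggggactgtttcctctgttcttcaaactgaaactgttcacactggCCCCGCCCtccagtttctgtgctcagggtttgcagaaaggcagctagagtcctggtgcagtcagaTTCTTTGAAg
Gimap1, chr6:48738797-48739096, plus strand: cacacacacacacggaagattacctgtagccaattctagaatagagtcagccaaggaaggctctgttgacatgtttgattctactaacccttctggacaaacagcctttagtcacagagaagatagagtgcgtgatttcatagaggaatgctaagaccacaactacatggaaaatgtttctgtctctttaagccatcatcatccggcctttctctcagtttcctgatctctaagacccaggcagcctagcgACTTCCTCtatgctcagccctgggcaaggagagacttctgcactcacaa
Gimap6, chr6:48708195-48708494, minus strand: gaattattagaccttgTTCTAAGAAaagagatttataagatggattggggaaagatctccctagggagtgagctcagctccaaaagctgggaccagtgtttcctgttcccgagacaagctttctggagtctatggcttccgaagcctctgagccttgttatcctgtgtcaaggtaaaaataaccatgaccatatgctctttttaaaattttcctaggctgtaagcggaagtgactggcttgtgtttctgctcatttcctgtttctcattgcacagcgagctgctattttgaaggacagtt
Gimap9, chr6:48675885-48676184, plus strand: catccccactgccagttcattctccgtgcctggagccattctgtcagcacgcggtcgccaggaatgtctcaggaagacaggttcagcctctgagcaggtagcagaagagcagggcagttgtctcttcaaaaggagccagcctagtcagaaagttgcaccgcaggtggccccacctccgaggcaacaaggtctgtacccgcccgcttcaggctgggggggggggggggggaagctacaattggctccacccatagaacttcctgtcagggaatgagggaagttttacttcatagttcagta

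All 8 genes had such a window, Gimap8 a pair of them, which gave 9 windows with 43.3% to 57.3% G and C. The window of Gimap9 held 8 CG dinucleotides and each of the others 2 to 4. Both strands of each were searched for 12 motifs of lymphocyte transcription factors, and overlapping matches were kept. The motif TTCNNNGAA, which STAT factors bind, was in 4 of the 9 windows, those of Gimap3, Gimap6, Gimap7 and 1 of the pair of Gimap8, beside 8.30% of 32851 promoter windows of all genes. In Gimap7 it began 40 bases after the start and overlapped CTTTGAA, a TCF and LEF motif in 5.14% of all windows. In Gimap6 it began 234 bases before the start. It was therefore in windows of genes with differences above and below 0.

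Gimap7 also held CCCCGCCC, a GC box bound by SP and KLF factors, 25 bases before its start (17.6% of all windows). Gimap1 held GAGGAAGT, an ETS motif, on the other strand beginning 1 base after the start (3.20%), and Gimap3 held TGTTTAC, a FOXO motif, on the other strand 247 bases before the start (3.65%). In none of the 9 windows were the letters of the other 7 motifs, namely CCGGAAG (ETS), TGTGGTT (RUNX), CCACACCC (KLF), GGGANTTTC (NF-kappaB), TGANTCA (AP-1), GAAANNGAA (interferon response) and CACGTG (E-box). The 7 were in 8.86%, 5.27%, 3.56%, 1.11%, 7.81%, 8.56% and 7.15% of all windows in that order. A match or its absence describes these letters in these windows and was not tied to the expression values by a test. Other letters that the same factors may bind, ETS factors among them, were not searched for.

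Of the genes for proteins reported to work with Gimap proteins, most were not called. Of 8 genes listed (BCL2 family members, the kinase Gsk3b and the autophagy protein Gabarapl2), Bax was not analysed here, and of the other 7, 1 rose, 1 fell and 5 were not called, beside 4.49% higher and 1.47% lower among all genes tested; their median difference was -0.10. Bcl2, the inhibitor of cell death, had 7.90 and 7.88 after anti-DR3, against 8.77 and 8.56 after control antibody. It fell by 0.78 ± 0.098 (SE; adjusted p = 0.0163, limma), while a dimmer second probe set gave -0.10. Bak1, which opens the outer mitochondrial membrane in apoptosis, had 8.04 and 8.09 after anti-DR3, against 7.41 and 7.56 after control antibody, and rose by 0.58 ± 0.090 (SE; adjusted p = 0.0272, limma). Both changes were larger than that of any Gimap gene. Bcl2l1 (-0.19) and Bcl2l11 (-0.43) did not pass (adjusted p = 0.259 and 0.278, limma). Limma called 0 of the 7 without anti-DR3 replicate 1, anti-DR3 replicate 2 or control antibody replicate 1, and 1 higher and 2 lower without control antibody replicate 2.

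Some genes of the resting state of lymphocytes fell. Of 20 such genes listed 18 were measured, and of these 0 rose, 3 fell and 15 were not called, beside 4.49% higher and 1.47% lower among all genes tested; their median difference was -0.32, against 0.12 for the Gimap genes and 0.01 for all genes tested. The list was chosen with earlier results of these arrays known and is no independent evidence of its direction. Satb1, a chromatin organiser, fell by 0.88, Bach2, a repressor that holds T cells at rest, by 0.69, and Foxp1, a factor of T cell quiescence, by 0.63 (adjusted p = 0.0373, 0.0177 and 0.0283, limma). Il7r, the receptor chain of the survival cytokine interleukin 7, differed by 0.44, above 0 (adjusted p = 0.0519, limma), the same size as Gimap7. The count called lower was 3 without control antibody replicate 2 and 0 without any other 1 of the arrays; which genes made up that count was not compared.

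The other large family of immune GTPases, those induced by interferon, had positive differences in the 11 genes tested. Of 16 listed, Gbp2, Tgtp1 and Tgtp2 were not analysed here, and Gbp6 and Mx1 were dim. Of the 11, 5 rose, 0 fell and 6 were not called, beside 4.49% higher and 1.47% lower among all genes tested, with differences of 0.26 to 0.86 and a median of 0.48. Iigp1 had 8.71 and 8.80 after anti-DR3, against 7.74 and 8.05 after control antibody, and rose by 0.86 (adjusted p = 0.0220, limma). Irgm1, Igtp and Gbp5, GTPases that act at the membranes around intracellular pathogens, rose by 0.62, 0.58 and 0.48 (adjusted p = 0.0316, 0.0321 and 0.0392, limma). The remaining call, Gbp7, rose by 0.46 (adjusted p = 0.0473, limma) and was picked for naming with its value known. Of the 11, 1 rose without control antibody replicate 2 and 0 without any other 1 of the arrays, with a median between 0.41 and 0.57. With all 4 arrays the differences of the 8 Gimap genes lay below this family's median, but without anti-DR3 replicate 2 that of Gimap7, 0.44, lay above it (0.41).

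By profile, the genes most like the Gimap average were flat between the groups. Their choice fixed this, since that average was itself nearly flat. Likeness was the Euclidean distance, over the 4 arrays, between a gene's centred log2 values and the mean of the 8 Gimap genes, which was -0.05 and 0.13 after anti-DR3, against 0.03 and -0.11 after control antibody. The 5 nearest were Riox1, Wdr45b, Rps15a-ps5, Mrpl21 and Fbxw11, at distances of 0.020 to 0.024, with differences of 0.06, 0.10, 0.08, 0.08 and 0.08 (adjusted p from 0.596 to 0.752, limma). Of the Gimap genes, each of which is itself part of that mean, Gimap8 was the closest (0.086, with 1.34% of other genes closer), followed by Gimap3 (0.17, 12.9%), Gimap4 (0.18, 16.9%) and Gimap5 (0.22, 29.0%). Gimap1 (0.29, 53.0%) and Gimap6 (0.38, 75.3%) were farther, and Gimap7 and Gimap9 were the farthest (0.40 and 0.41, with 79.1% and 80.0% of other genes closer).

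The anti-DR3 arrays correlated at 0.992 and the control arrays at 0.989 across tested genes. Array medians over all probe sets were 40.2 and 40.4 intensity units after anti-DR3, against 41.6 and 42.0 after control antibody. Both were thus slightly lower after anti-DR3. The sorted cells carried their defining markers: Cd3e, Cd4, Foxp3, Il2ra, Ctla4 and Ikzf2 were all bright, and Foxp3 differed by 0.06 (adjusted p = 0.671, limma). Of these 6, Ikzf2 rose by 0.58 and Il2ra fell by 0.49 (adjusted p = 0.0193 and 0.0441, limma), and 4 were not called. Proliferation genes rose in 6 of 7 tested, with a median of 1.53. Among all genes tested 4.49% were called higher and 1.47% lower. With any 1 array left out the median of the proliferation genes stayed between 1.41 and 1.51, but their calls depended on which array was left out. Gimap genes are also expressed in other lymphocytes and in endothelium. Of 6 B cell markers 5 were dim, among them Ms4a1 and Pax5, and their summed intensities were 229 and 243 after anti-DR3, against 226 and 221 after control antibody. Of 6 endothelial markers 5 were dim (Cdh5, Kdr, Tek, Esam and Emcn), and Pecam1, which T cells also express, did not pass. The natural killer markers Ncr1 and Klrb1c were dim, and Eomes did not pass (adjusted p = 0.889, limma).

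Some markers of other cells were called, beside 4.49% higher and 1.47% lower among all genes tested. Cd8b1 rose by 0.49 (adjusted p = 0.0416, limma) with Cd8a dim, and the 2 CD8 markers summed to 224 and 240 after anti-DR3, against 173 and 168 after control antibody. Of 6 myeloid markers 4 were tested and 1 rose, Csf1r, by 0.42 (adjusted p = 0.0387, limma). Itgam (0.47), Lyz2 (0.43) and Itgax (0.02) were not called (adjusted p = 0.0766, 0.296 and 0.947, limma). Cd14 and Adgre1 were dim, and Adgre1 was lower on both anti-DR3 arrays, by 0.34. The 6 summed to 270 and 307 after anti-DR3, against 232 and 249 after control antibody. Of 4 markers of resting conventional CD4 T cells 2 were dim, 1 fell, Igfbp4, by 0.55 (adjusted p = 0.0269, limma), and 1 did not pass, with sums of 196 and 216 after anti-DR3, against 258 and 285 after control antibody. Of 2 markers of type 2 innate lymphoid cells measured, Il5 was dim and Il13 did not pass. None of Cd8b1, Csf1r, Igfbp4, Ikzf2 and Il2ra was called with any 1 array left out. The part of these markers in the Gimap values was not tested.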

How the data were processed

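RNA of sorted Treg was hybridised to Affymetrix whole-transcript arrays after biotin labelling, per the labels' protocols. The authors deposited 1 linear-scale intensity for each probe set and array, made with robust multi-array average (RMA, which corrects background, normalizes arrays to a shared distribution and summarises probes), per the submitters' processing notes. The RMA program, its version and the genome build: not given in the sources used here. A shift common to all genes would be removed by RMA. Since all values lay above 0 and were far too large for log2 values, they were read as linear, and log2 was taken before testing.

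Of 41345 probe sets, 23521 had 1 symbol, 1814 several and 16010 none listed. The brightest probe set stood for each gene, and genes above the array median on at least 2 of 4 arrays were tested (12114; 10066 were dim). The comparison used limma 3.58.1 under R 4.3.3 (lmFit, eBayes, two-sided, Benjamini-Hochberg over all genes tested, threshold 0.05; 2 residual and 3.94 prior degrees of freedom). With 2 arrays against 2 an exact permutation test cannot go below p = 0.333. The number of arrays limits the precision.

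The members, gene lists, motifs and alternatives were chosen with earlier results of these data known, and the NF-kappaB and interferon response motifs were shortened after a first search had been seen. Named were all members, 3 measured neighbours on each side of the cluster, the 5 genes nearest in profile (predicted genes left out), and up to 4 genes of each list by moderated statistic. Not every gene that this last rule allows is described. Promoters and gene order come from RefSeq tables of GRCm38.p6. The code was tested on 20 simulated sets, each with 200 changed genes and the fitted spread. It called 16.6% of changes of 0.5 and 91.1% of changes of 1 on the log2 scale, and 4.64% of calls were false. A Gimap gene that was not called is therefore not shown to be unchanged. The simulated sets held fewer changed genes than the 722 called in the data, and their errors were drawn independently for each gene. The shares found in them need not hold for the comparison itself. Alternatives covered the filter on dim genes, centring, the variance model, weights for arrays, how probe sets stand for a gene, a replicate block, leaving out each array, and the threshold.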

Additional observations from a re-analysis of the deposited data

How the results depend on the processing

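Over the 8 genes and 14 alternatives, 95 values stayed on their side of the threshold with the same sign, 9 were no longer called, 3 became called and 5 changed sign. Where every probe set was tested on its own, the value counted for a gene was that of its brightest probe set. The count of Gimap genes called higher, 1 with all arrays, was 0 with no filter on dim genes, with each array centred on the median, with an ordinary linear model and with every probe set tested on its own, and 2 (Gimap7 and Gimap1) with a trended robust prior. The count called lower, 0 with all arrays, was 1 (Gimap9) under the stricter filter and at an adjusted p under 0.10. With 1 array left out (the array that stands alone is then taken to vary as the other group does), the counts were 0 to 0 in both directions. The median difference, 0.12, ran from 0.00068 to 0.26 in these fits, with the lowest value without anti-DR3 replicate 2. Gimap5 ran from -0.21 to 0.16 and Gimap8 from -0.071 to 0.11 in the same fits, and Gimap8 was -0.040 after centring. The causes of these changes were not tested.

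Over all genes limma called 722. The count was 14 with no filter on dim genes (3573 under an unadjusted p of 0.05), 1157 with the stricter filter, 1444 with the trended robust prior, 1689 at an adjusted p under 0.10, and 0 with an ordinary linear model (2087 unadjusted) or every probe set on its own (4121). Without anti-DR3 replicate 1 it was 33, without anti-DR3 replicate 2 it was 0 (1967 unadjusted), without control antibody replicate 1 it was 96 and without control antibody replicate 2 it was 312. Centring split the calls into 348 higher and 243 lower, against 544 and 178. The labels do not say what replicate numbers share, and replicate differences in the 2 groups had a correlation of 0.051 over genes, so with 2 pairs no pairing can be shown. The replicate block gave 0 Gimap genes higher and 0 lower, and 563 genes in all. For Gimap7 the ordinary linear model gave an SE of 0.011, against 0.077 with the shared spread, and an adjusted p of 0.152.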
